A study of Mus musculus with 12 samples.

Results

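Imprinted growth genes were followed in embryonic hearts and in heart organoids through 10 genes chosen by name, H19, Igf2, Igf2r, Dlk1, Meg3, Peg3, Cdkn1c, Mest, Grb10 and Peg10, out of 26190 genes in the deposited expression table. All 10 were found there once and all 10 passed the filter for low counts in each comparison. Mouse embryonic hearts at stage E11.5 (E11.5H) gave atria and ventricles. Heart organoids (HOs) were cut into an atrium-like and a ventricle-like part after 13 days of culture, and each of the 4 groups has 3 libraries. The samples are labelled C57BL/6. HOs were grown from embryoid bodies of mouse embryonic stem cells on a gel of laminin and entactin with FGF4, and BMP4, the Wnt activator BIO and LIF were added late in the culture. The study used several embryonic stem cell lines, some of them from crosses of C57BL/6 with JF1, and the labels do not say which line gave which library. HO parts are surgical pieces of a mixed culture and not sorted cells.

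Imprinted genes are read mainly from the allele of a single parent, under the control of DNA methylation set in the germ line, and many of them regulate fetal growth. Genes read from the paternal allele tend to promote growth and those read from the maternal allele to restrain it. Imprinted methylation can be lost or gained when stem cells are cultured, which is the reason to look at the spread between organoid libraries. The values here are totals over both alleles, so imprinting itself was not measured.

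Mest, Grb10, Cdkn1c and Igf2r were lower in both HO parts than in the matching chambers of E11.5H, with log2 fold changes of -4.46 to -2.15. Dlk1, Meg3 and Peg10 were higher in both, with log2 fold changes of 2.33 to 3.61. H19 passed the test in atrium-like parts alone and Igf2 in ventricle-like parts alone, though for neither gene was the difference between the chambers called, and Peg3 passed in neither. Meg3, a gene known to be silenced in some cultured mouse stem cell lines, was not silent in any HO library, and its lowest value there was 4.31 FPKM. FPKM, as the authors deposited it, is a fragment number scaled to transcript length and to the total of the library, and levels of different genes are compared in this unit. Fold changes come from edgeR's quasi-likelihood test on the deposited fragment counts, and genes were called where p, adjusted by Benjamini-Hochberg, was below 0.05 and the log2 fold change exceeded 1 in size. Between atrium-like parts and atria 8 of the 10 genes were called, 4 higher and 4 lower, where 24.8% of the 15418 genes tested were called, 16.0% higher and 8.81% lower. The libraries of these 8 genes did not overlap between the groups, as was so for 54.1% of all genes. Ventricle-like parts and ventricles also gave 8 calls, 3 higher and 5 lower, against 18.9% of 15094 genes, 11.6% higher and 7.35% lower. Here 9 of the 10 did not overlap, H19 included, against 51.1% of all genes.

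**Figure D1:**
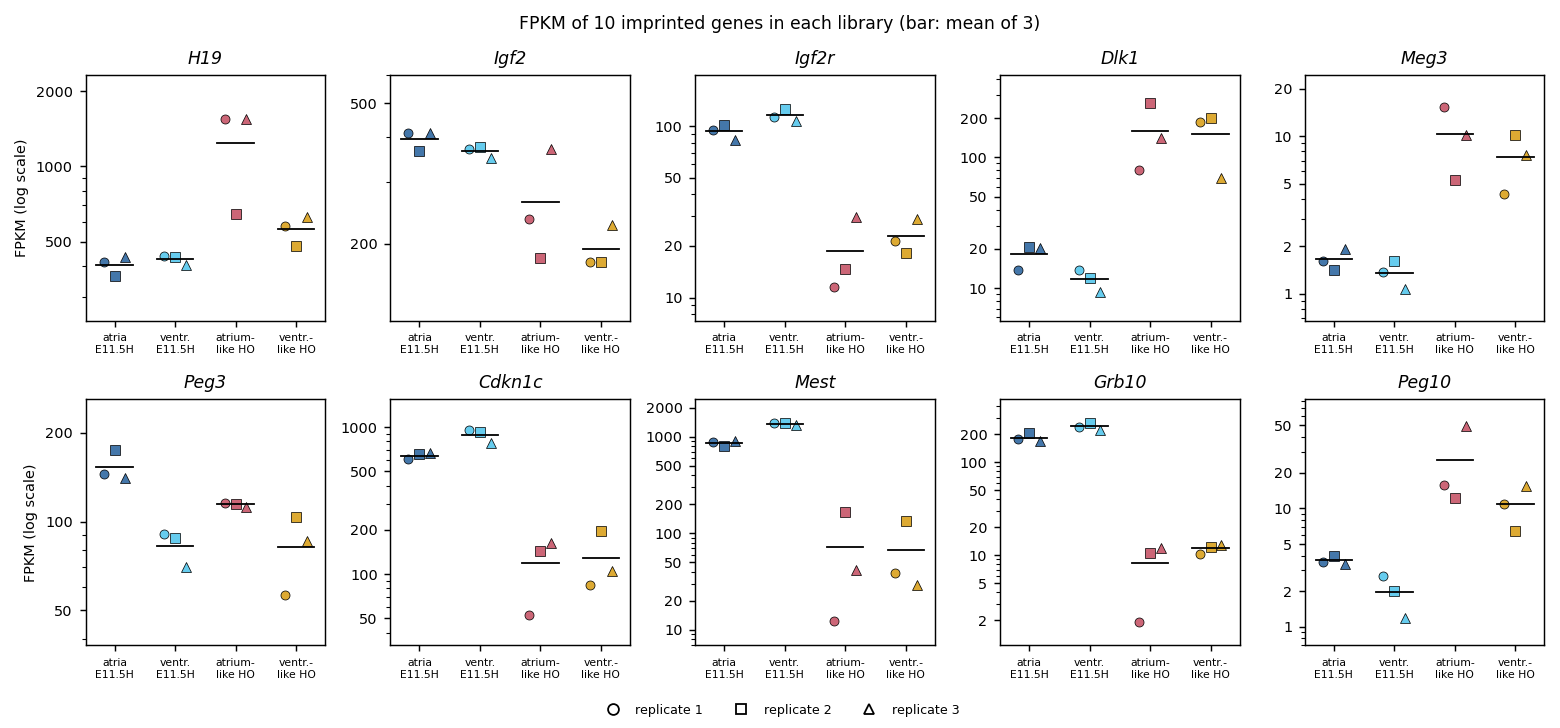
FPKM (vertical axis, log scale) of the 10 genes in each library of the 4 groups (horizontal axis). Circles, squares and triangles are replicates 1, 2 and 3 and bars are means. Mest, Grb10, Cdkn1c and Igf2r sit lower in each HO library than in each E11.5H library, and Dlk1, Meg3 and Peg10 sit higher.

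The libraries held 23971258 to 30540993 fragments assigned to genes, and 0.470% to 1.31% of these fell on the 10 genes. The labelled tissues were checked on marker lists. Cardiomyocyte genes summed to 24196 to 28340 CPM, counts scaled to library size in E11.5H, to between 749 and 2517 CPM in atrium-like and between 2177 and 7580 CPM in ventricle-like parts. None of the 10 cardiomyocyte genes was at 0 in all 3 libraries of a group. The 12 hepatocyte and visceral endoderm genes summed to 32.4 to 43.7 CPM in E11.5H, to between 1746 and 39064 CPM in atrium-like and between 237 and 13314 CPM in ventricle-like parts, and of these Fgb was at 0 in atria and Fga in ventricles of E11.5H. Against atria all 12 were called higher in atrium-like parts, where 16.0% of all genes were called higher. In ventricle-like parts 7 of the 9 tested were higher than in ventricles, against 11.6% of all genes. Between the chambers of E11.5H 7 of the 12 passed the filter for low counts, so the others passed it through the HO libraries. The 12 gut epithelium genes summed to 125 to 177 CPM in E11.5H. They summed to between 2341 and 10421 CPM in atrium-like and between 1103 and 5313 CPM in ventricle-like parts. All 12 were called higher in atrium-like parts and 9 of the 10 tested in ventricle-like parts, against 16.0% and 11.6% of all genes. Between the chambers of E11.5H 5 of these 12 passed the filter. The sum of endothelial genes was 733 to 875 CPM in E11.5H against 39.9 to 549 CPM in HOs, and that of erythroid genes was 5125 to 54303 CPM against 2.27 to 22.4 CPM. The part of these cell types in the results for imprinted genes was not tested, and in such dissected tissue fewer cells of a type and less RNA per cell cannot be told apart.

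Promoter sequences, 250 bases before to 50 bases after an annotated start (RefSeq, GRCm38.p6), were at hand for 7 of the 10 genes. They were searched on both strands for TGCCGC, the bases recognised when methylated by ZFP57, a zinc finger protein that protects imprinted methylation in embryonic stem cells. Of 32851 such windows in the genome 11.6% hold the bases at least 1 time and 1.53% at least 2 times. These shares were not matched for G and C content. The windows were placed by annotated starts and not by regions of imprinted methylation. A window of Mest with 2 matches and the window of Grb10 with 1 match are shown because these genes had the lowest HO levels relative to E11.5H. The Mest window is the second of 3, where the first has 0 matches and the third covers almost the same bases. The Grb10 window is the first of 2, and the second has 0 matches. The Mest window lies at chr6:30737800-30738099 on the plus strand, inside the gene, and the Grb10 window at chr11:12037371-12037670 on the minus strand, at the start of the gene. Capitals mark the 6 bases or their reverse complement GCGGCA, and a match is a description of the letters and not a binding site.
Mest: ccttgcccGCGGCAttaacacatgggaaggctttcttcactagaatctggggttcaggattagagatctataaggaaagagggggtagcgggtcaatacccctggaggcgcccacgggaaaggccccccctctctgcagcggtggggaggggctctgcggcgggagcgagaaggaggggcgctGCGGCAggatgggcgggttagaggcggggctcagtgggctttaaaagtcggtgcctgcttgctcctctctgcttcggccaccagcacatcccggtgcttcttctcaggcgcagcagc
Grb10: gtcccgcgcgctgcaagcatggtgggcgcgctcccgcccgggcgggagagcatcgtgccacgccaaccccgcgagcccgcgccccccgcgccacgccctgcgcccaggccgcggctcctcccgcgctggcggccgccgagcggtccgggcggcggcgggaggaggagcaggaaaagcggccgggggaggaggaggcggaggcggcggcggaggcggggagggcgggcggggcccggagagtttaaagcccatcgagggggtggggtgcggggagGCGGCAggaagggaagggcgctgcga
The Grb10 window holds 45 CG dinucleotides and is 80.0% G and C, and the Mest window holds 17 and is 62.7% G and C. The median window has 7 CG dinucleotides and 52.7% G and C. Single matches stood in 1 of 4 windows of Igf2 and 1 of 2 windows of Meg3, and the windows of Peg3, Dlk1 and Igf2r had none.

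H19 and Mest also carry microRNAs within their transcripts, and 1 mature strand of each is shown because the host genes moved in opposite directions in atrium-like parts. Seeds, bases 2 to 8, are in capitals (RefSeq, GRCm38.p6).
mmu-miR-675-5p in H19 (chr7:142577112-142577133, minus strand): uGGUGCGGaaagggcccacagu
mmu-miR-335-5p in Mest (chr6:30741314-30741336, plus strand): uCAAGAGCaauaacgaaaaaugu
The seeds differ. The hairpins have rows of their own in the table, with 0 fragments over the 12 libraries, so the levels of the microRNAs cannot be read from these data.

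Igf2 encodes the insulin-like growth factor that drives fetal growth and is read from the paternal allele (chromosome 7 from 142650768 to 142666816 of GRCm38, minus strand). Its FPKM was 412, 366 and 411 in atria and 370, 376 and 350 in ventricles of E11.5H. It was 234, 182 and 372 in atrium-like and 177, 177 and 226 in ventricle-like parts of HOs. The third atrium-like library reached into the range of atria, while the ventricle-like libraries were all below the ventricles. Against atria the log2 fold change was -0.40 (standard error, SE, 0.31, adjusted p = 0.347 by edgeR), and against ventricles it was -1.01 (SE 0.14, adjusted p = 0.00532 by edgeR). The ventricular value lay at the fold limit and fell inside it, between -0.998 and -0.873, under other size factors, with DESeq2 and with all 12 libraries in 1 fit, and was -0.967 and -0.925 without the first and without the second ventricle-like library. Igf2 overlaps Igf2os on the opposite strand over 7137 bases, and the use of strand in counting was not given. Fragments of either gene may therefore be counted for the other. Igf2os had 69.3 to 424 counts in a library, where Igf2 had 26259 to 66045.

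H19, the maternally expressed non-coding RNA that shares its imprinting control region with Igf2 (chromosome 7 from 142575530 to 142578146, minus strand), went the other way. It had 415, 362 and 433 FPKM in atria and 439, 435 and 402 FPKM in ventricles of E11.5H. Atrium-like parts had 1543, 646 and 1552 FPKM and ventricle-like parts 580, 482 and 628 FPKM. Each HO library was above each E11.5H library, and atrium-like libraries 1 and 3 stood apart from the other HO libraries. The log2 fold change was 1.85 against atria (SE 0.42, adjusted p = 0.0196 by edgeR) and 0.31 against ventricles (SE 0.14, adjusted p = 0.134 by edgeR). The mean of the 3 atrium-like libraries was the 22nd highest FPKM of all genes, where H19 ranked 151 in both chambers of E11.5H.

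Atrium-like libraries 1 and 3 were also the highest in hepatocyte and visceral endoderm genes, with mean log2 CPM of 9.81 and 9.38 over the list and 5.14 in the second. The ventricle-like libraries had 3.81, 0.51 and 8.87 on this scale. Values of the gut epithelium list went the same way, with 8.52, 6.47 and 8.29 in atrium-like and 5.25, 2.26 and 7.71 in ventricle-like parts. The part of these cells in the level of H19 was not tested. Atrium-like libraries 1 and 3 were also the highest in H19, so a smaller H19 difference without them was fixed by that choice. Without those 2 atrium-like libraries, an alternative chosen after seeing the data, the log2 fold change against atria was 0.64 for H19, inside the fold limit, and -1.16 for Igf2. This leaves 1 HO library, whose spread cannot be estimated, and edgeR's common spread between replicates, as a coefficient of variation, was larger among HO libraries (0.677) than among those of E11.5H (0.211), so no test is given. The other 7 genes called in atrium-like parts kept their direction with a log2 fold change over 1 in size, with Mest at -2.44, Peg10 at 1.73 and Meg3 at 1.63. Leaving out single libraries kept the log2 fold change of H19 between 1.56 and 2.19. Its adjusted p was then above 0.05 without any 1 of the 3 atria libraries (0.0761 to 0.0851 by edgeR) and without the third atrium-like library (0.0630).

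The ratio of H19 to Igf2 FPKM within a library does not depend on scaling between libraries. It was 1.01, 0.989 and 1.05 in atria and 1.19, 1.16 and 1.15 in ventricles of E11.5H, so the neighbours were level there to within 1.2-fold. It was 6.58, 3.55 and 4.18 in atrium-like and 3.27, 2.72 and 2.78 in ventricle-like parts. Each HO library lay above each E11.5H library. An exact two-sided permutation test gave p = 0.1 in each chamber, the smallest that 3 against 3 libraries allow, and the pair was chosen with the levels known.

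Igf2r encodes the maternally expressed receptor that takes IGF2 into lysosomes for breakdown (chromosome 17 from 12682406 to 12769706, minus strand). It had 95.4, 101 and 82.9 FPKM in atria and 113, 127 and 108 FPKM in ventricles of E11.5H. In HOs it had 11.6, 14.8 and 29.7 FPKM in atrium-like and 21.4, 18.3 and 28.5 FPKM in ventricle-like parts. No HO library came near the E11.5H range. Log2 fold changes of Igf2r were -2.15 (SE 0.36, adjusted p = 0.00894 by edgeR) and -2.44 (SE 0.20, adjusted p = 0.0015 by edgeR). Relative to Igf2 in the same library, Igf2r was at 0.202 to 0.337 in E11.5H against 0.0494 to 0.126 in HOs, again without overlap (exact permutation p = 0.1 in each chamber). Igf2r shares 28396 bases with Airn, the paternally expressed antisense RNA that silences it in cis. Airn had 4.44 to 6.92 FPKM in E11.5H, 5.54 to 12.5 FPKM in HOs and passed in neither comparison (log2 fold changes of 0.84 and 0.54, edgeR-adjusted p of 0.0748 and 0.273).

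Grb10, an adaptor that dampens signalling from insulin and insulin-like growth factor receptors and is maternally expressed in most tissues, had the lowest log2 fold change of the 10 genes in both comparisons (chromosome 11 from 11930499 to 12037420, minus strand). Its FPKM was 179, 205 and 169 in atria and 242, 266 and 225 in ventricles of E11.5H. Atrium-like parts had 1.92, 10.7 and 11.9 FPKM and ventricle-like parts 10.2, 12.4 and 13 FPKM. A single atrium-like library, the first, was far below the rest, and the other 5 HO libraries lay close together. The log2 fold change was -4.38 against atria (SE 0.64, adjusted p = 0.00598 by edgeR) and -4.46 against ventricles (SE 0.14, adjusted p = 0.000315 by edgeR). Without the first atrium-like library it was -3.95. Grb10 moved from rank 395 and 295 by mean FPKM in atria and ventricles to 6498 and 5305 in the HO parts.

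Its neighbour Ddc, dopa decarboxylase, which is imprinted in the fetal heart on the paternal allele, did not fall with it. Ddc had 6.40 to 8.14 FPKM in atria, 22.1 to 23.8 FPKM in ventricles, 21.8 to 35.5 FPKM in atrium-like and 28.8 to 58.8 FPKM in ventricle-like parts. Against atria it was higher in atrium-like parts (log2 fold change 2.09, SE 0.18, adjusted p = 0.00185 by edgeR), and the difference from ventricles was 0.76 (adjusted p = 0.0857 by edgeR). Between the chambers of E11.5H Ddc was lower in atria by a log2 fold change of -1.74 (adjusted p = 9.7e-06 by edgeR).

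Cdkn1c, which encodes a cyclin-dependent kinase inhibitor that brings cells out of the cycle, is maternally expressed (chromosome 7 from 143458339 to 143461050, minus strand). It had 603, 654 and 662 FPKM in atria and 956, 929 and 775 FPKM in ventricles of E11.5H. It had 53.0, 144 and 162 FPKM in atrium-like and 84.4, 196 and 106 FPKM in ventricle-like parts. Every HO library was below every E11.5H library, and the first library of each HO part was the lowest. Cdkn1c had log2 fold changes of -2.28 (SE 0.37, adjusted p = 0.00762 by edgeR) and -2.88 (SE 0.32, adjusted p = 0.00317 by edgeR).

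Neighbours of Cdkn1c in the same cluster were given by name as well. Phlda2, a maternally expressed gene that limits placental growth, had 1.27 to 1.85 FPKM in atria and 11.3, 9.57 and 35.6 FPKM in atrium-like parts, a log2 fold change of 3.84 (SE 0.64, adjusted p = 0.00853 by edgeR). Ventricle-like parts had 3.40, 4.05 and 28.2 FPKM of Phlda2, with a log2 fold change of 3.27 that did not pass (adjusted p = 0.0516 by edgeR). The highest Phlda2 values stood in the third library of each part. Kcnq1ot1, the paternally expressed antisense RNA of the cluster, had 0.394 to 0.996 FPKM in all groups and was called in neither comparison with E11.5H (log2 fold changes of 0.59 and -0.21, edgeR-adjusted p of 0.267 and 0.431).

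Dlk1, a paternally expressed membrane protein related to Notch ligands that marks fetal progenitor cells (chromosome 12 from 109452823 to 109463336, plus strand), was among the lower members in E11.5H. It had 13.8, 20.6 and 20.2 FPKM in atria and 13.8, 12.02 and 9.36 FPKM in ventricles. In HOs the values were 79.8, 260 and 140 FPKM in atrium-like and 186, 202 and 69.4 FPKM in ventricle-like parts. The HO libraries were all above those of E11.5H and spread over 3.75-fold among themselves. The log2 fold changes were 3.26 (SE 0.39, adjusted p = 0.00372 by edgeR) and 3.61 (SE 0.44, adjusted p = 0.00366 by edgeR). Dlk1 was higher in the second atrium-like and the first and second ventricle-like libraries than in the other 3 of HOs. The same libraries had the highest fibroblast and mesenchyme list values (mean log2 CPM of 7.99, 7.58 and 7.38, against 5.33 to 6.59). They were also highest on the macrophage list (5.95, 5.18 and 5.56 against 2.35 to 4.49) and on the endothelial and neural lists. On the hepatocyte and visceral endoderm list they were lowest (5.14, 3.81 and 0.51 against 8.87 to 9.81), as on the gut epithelium list. The cardiomyocyte, skeletal muscle and erythroid lists did not split this way. The part of these cells in the level of Dlk1 was not tested.

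Meg3 is the maternally expressed non-coding RNA of the same domain (chromosome 12 from 109540996 to 109571729, plus strand). It had 1.62, 1.43 and 1.92 FPKM in atria and 1.38, 1.62 and 1.08 FPKM in ventricles of E11.5H. Atrium-like parts had 15.4, 5.27 and 10.2 FPKM and ventricle-like parts 4.31, 10.2 and 7.55 FPKM. Meg3 was thus the lowest of the 10 genes in E11.5H by mean FPKM, and each HO library was above each E11.5H library. The log2 fold changes were 2.87 (SE 0.48, adjusted p = 0.00854 by edgeR) and 2.33 (SE 0.33, adjusted p = 0.00565 by edgeR).

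The genes around them, Rian, Mirg, Rtl1 and Dio3, were below Dlk1 in each library. Rian was above Meg3 in each library of E11.5H. Rian, a non-coding RNA downstream of Meg3, had 3.67 to 5.43 FPKM in E11.5H, 6.93 to 7.55 FPKM in atrium-like and 4.73 to 8.86 FPKM in ventricle-like parts, and was called in atrium-like parts alone (log2 fold change 1.02, SE 0.19, adjusted p = 0.0112 by edgeR). Mirg, a further maternal non-coding RNA of the domain, was called in ventricle-like parts alone (log2 fold change 3.31, SE 0.68, adjusted p = 0.0173 by edgeR), with 0.0720 to 0.130 FPKM in ventricles and 0.617 to 1.65 FPKM in ventricle-like parts. Mirg had 3, 4 and 5 counts in ventricles against 42, 70 and 26 in ventricle-like parts, so it passed the filter for low counts through the latter. In atrium-like parts the log2 fold change of Mirg was 2.29 (adjusted p = 0.0695 by edgeR). Neither difference between the parts was called in the test between them. Rtl1, a paternally expressed retrotransposon-derived gene, stayed at or under 0.338 FPKM in all libraries and was called in neither comparison (edgeR-adjusted p of 0.262 and 0.156). Dio3, a deiodinase that inactivates thyroid hormone, had 0 counts in all 3 atria and passed the filter for low counts through atrium-like parts. These were at least 7.88-fold higher against a floor of 3 counts in each library.

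Within a library Meg3 was at 0.0694 to 0.135 of Dlk1 in E11.5H, while HOs covered 0.0202 to 0.193. The first and second atrium-like libraries were the extremes of all 12, and the groups overlapped (exact permutation p = 0.8 in the atrial and p = 0.2 in the ventricular comparison, of a smallest possible 0.1).

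**Figure D2:**
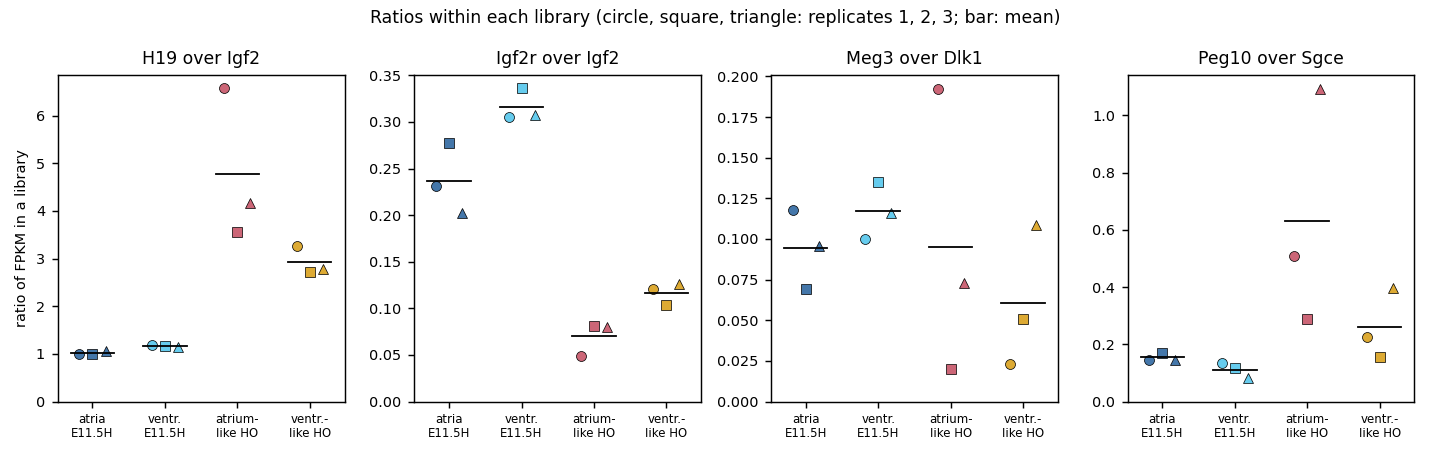
Ratio of FPKM of 2 genes in the same library (vertical axes, linear and starting at 0) in the 4 groups (horizontal axis), with symbols for replicates and bars for means. H19 over Igf2 is between 0.989 and 1.19 in E11.5H and between 2.72 and 6.58 in HOs, and Meg3 over Dlk1 overlaps between groups.

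Mest encodes a paternally expressed protein of the hydrolase fold family found in mesoderm (chromosome 6 from 30733506 to 30748466, plus strand). Among the 10 genes it had the highest mean FPKM in both chambers of E11.5H, with 888, 810 and 910 in atria and 1380, 1376 and 1334 in ventricles. HOs had 12.2, 165 and 41.5 FPKM in atrium-like and 38.8, 135 and 28.9 FPKM in ventricle-like parts. The second library of each part was the highest and all 6 were below E11.5H. The log2 fold changes were -3.52 (SE 0.84, adjusted p = 0.0233 by edgeR) and -4.44 (SE 0.64, adjusted p = 0.00633 by edgeR). The atrial call was lost without any 1 of the 3 atria libraries or without the third atrium-like library, with adjusted p of 0.0691 to 0.0746 and log2 fold changes of -3.59 to -3.31. Over all single libraries left out the log2 fold change ran from -4.82, without the second atrium-like library, to -3.07 in atrium-like parts and from -5.40, without the second ventricle-like library, to -4.13 in ventricle-like parts. The second libraries of both HO parts also had the highest endothelial list values of the HO libraries, a mean log2 CPM of 4.76 and 4.10 against 0.75 to 1.75, and the highest skeletal muscle list values, 2.70 and 2.42 against -1.69 to -1.32. Their neural list values, 2.34 and 4.597 against -1.80 to 1.65, and macrophage list values, 5.95 and 5.56 against 2.35 to 5.18, were the highest of the HO libraries too. The part of these cells was not tested. Mest shares 913 bases with Copg2 on the opposite strand.

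Peg10, a paternally expressed gene derived from a retrotransposon that is needed in the placenta (chromosome 6 from 4747306 to 4760516, plus strand), had 3.54, 3.94 and 3.42 FPKM in atria and 2.69, 2.03 and 1.18 FPKM in ventricles of E11.5H. It had 15.7, 12.3 and 49.3 FPKM in atrium-like and 10.8, 6.45 and 15.4 FPKM in ventricle-like parts. All HO libraries were above E11.5H, and the third of each part was the highest. Log2 fold changes of Peg10 were 3.01 (SE 0.57, adjusted p = 0.0123 by edgeR) and 2.39 (SE 0.42, adjusted p = 0.0111 by edgeR). The atrial call was lost without any 1 of the 3 atria (log2 fold changes of 2.96 to 3.05, edgeR-adjusted p of 0.0578 to 0.0606) and the ventricular call without the second ventricles library (2.40, adjusted p of 0.0617). Over all single libraries left out the atrial value ran from 2.14, without the third atrium-like library, to 3.37. Its neighbour Sgce, a sarcoglycan also read from the paternal allele, had 14.4 to 24.1 FPKM in E11.5H and 30.8 to 47.8 FPKM in HOs, with log2 fold changes of 0.91 (adjusted p = 0.00966 by edgeR) under the fold limit and 1.22 (adjusted p = 0.00435 by edgeR) past it. The ratio of Peg10 to Sgce was 0.0816 to 0.170 in E11.5H against 0.155 to 1.09 in HOs, and within each chamber the groups did not overlap (exact permutation p = 0.1).

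Peg3, a paternally expressed zinc finger protein (chromosome 7 from 6705960 to 6730419, minus strand), was the member closest to E11.5H. It had 145, 175 and 140 FPKM in atria and 90.6, 87.9 and 70.2 FPKM in ventricles, and 115, 115 and 113 FPKM in atrium-like and 56.4, 104 and 86.0 FPKM in ventricle-like parts. HO and E11.5H values overlapped in the ventricular comparison, and the atrium-like values lay below the atria in FPKM but overlapped them in CPM. The log2 fold changes were -0.24 (SE 0.17, adjusted p = 0.305 by edgeR) and -0.11 (SE 0.22, adjusted p = 0.73 by edgeR).

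**Figure D3:**
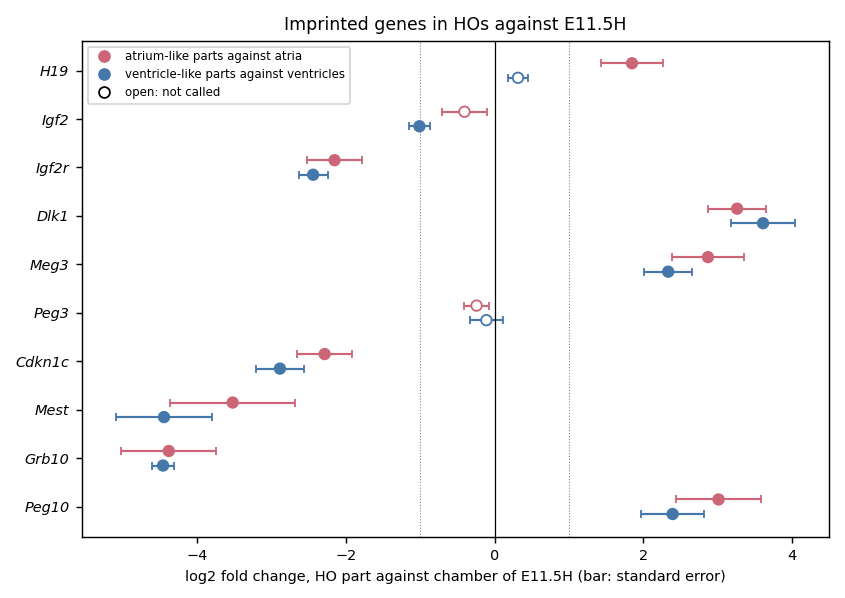
Log2 fold change (horizontal axis) of each gene in atrium-like parts against atria and in ventricle-like parts against ventricles, with standard errors as bars and open symbols for genes that were not called. Dotted lines mark the fold limit of 1, and the values run from -4.46 for Grb10 to 3.61 for Dlk1.

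Between the chambers of E11.5H none of the 10 genes was called, where 4.90% of 14536 genes were. The fold limit decided this, as 7 of the 10 had an edgeR-adjusted p under 0.05 against 13.6% of all genes tested. Mest (log2 fold change -0.72, SE 0.06), Cdkn1c (-0.54, SE 0.07), Grb10 (-0.47, SE 0.08) and Igf2r (-0.38, SE 0.08) were lower in atria than in ventricles. Peg10 (0.83, SE 0.23), Peg3 (0.82, SE 0.10) and Dlk1 (0.56, SE 0.16) were higher in atria. Adjusted p was 5.74e-05 to 0.0412 for these 7 genes. With all 12 libraries in 1 fit, where HO libraries enter the estimate of the spread, none of the 7 had an adjusted p under 0.05 (0.182 to 0.985 by edgeR). Leaving out single libraries of E11.5H took the adjusted p above 0.05 for Peg10 in 5 of 6 cases (0.0521 to 0.130 by edgeR), for Dlk1 in 4 of 6 (0.110 to 0.151) and for Igf2r without the second ventricles library (0.0651). With the replicate number as a block Dlk1 had an adjusted p of 0.0876. H19 differed by -0.14, Igf2 by 0.05 and Meg3 by 0.22 on the log2 scale, with edgeR-adjusted p of 0.272 to 0.704.

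Between the HO parts none of the 10 genes was called and none of 15703 genes was by edgeR (0% called), with 889 genes, or 5.66%, at an unadjusted p under 0.05. DESeq2 called 59 genes there and none of the 10. H19 (log2 fold change 1.38, SE 0.45, unadjusted p = 0.0215) and Peg3 (0.67, SE 0.27, unadjusted p = 0.0443) were higher in each atrium-like than in each ventricle-like library, as were 5.76% of genes, and both had an edgeR-adjusted p of 0.75. For the other 8 genes the parts overlapped, with log2 fold changes of -0.43 for Grb10 to 1.43 for Peg10. The interaction of chamber and tissue over the 12 libraries called none of the 10 genes and 0.152% of 16494 genes. One unadjusted p among the 10 was under 0.05, that of H19 (log2 difference of differences 1.51, SE 0.46, adjusted p = 0.277 by edgeR), so a different response of H19 in the 2 chambers did not pass. With DESeq2 the adjusted p of H19 was 0.0436, and without the second atrium-like library the edgeR difference was 1.88 and was called.

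The 10 genes varied more between HO libraries than between E11.5H libraries. The SD of log2 CPM over 3 libraries was larger in HOs for 10 of 10 genes in both chambers, where 82.6% of 16494 genes had the larger SD in atrium-like parts and 80.7% in ventricle-like parts, so a larger spread was common to most genes. By the coefficient of variation of FPKM the count was 9 of 10 in the atrial and 10 of 10 in the ventricular comparison, since Peg3 had an SD of 1.58 around 114 FPKM in atrium-like parts and of 19.1 around 154 FPKM in atria. The median SD of the 10 genes was 0.813 in atrium-like parts and 0.135 in atria, and over all genes 0.556 and 0.189. It was 0.494 in ventricle-like parts and 0.110 in ventricles, and over all genes 0.456 and 0.168. Mest had the largest SD in both parts, 1.71 and 1.12, and differed 13.5-fold between its highest and lowest atrium-like library. Grb10 had 1.33 in atrium-like and 0.176 in ventricle-like parts, and Peg10 had 1.11 and 0.682. Peg3 was steady in atrium-like parts, with an SD of 0.173, and had 0.413 in ventricle-like parts.

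**Figure D4:**
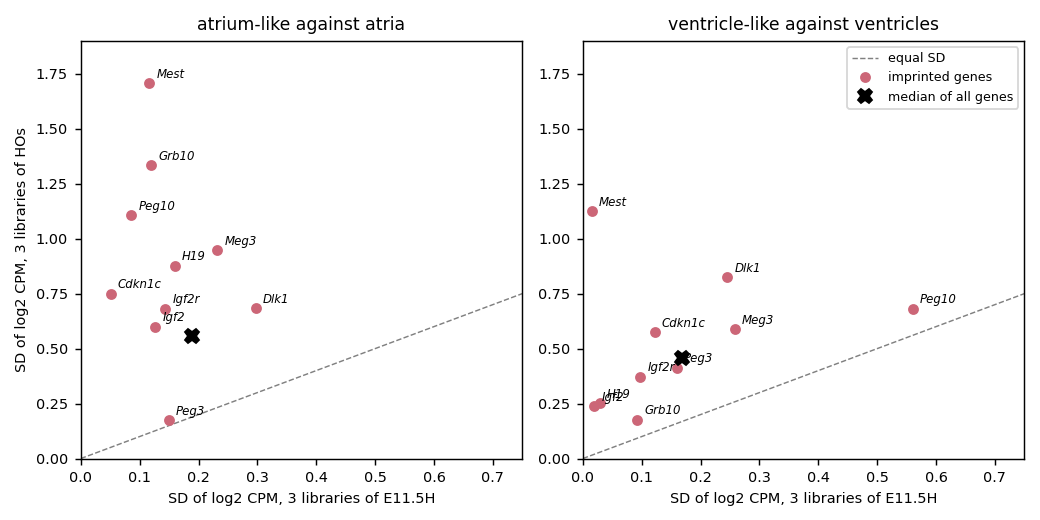
SD of log2 CPM over 3 libraries in HOs (vertical axis) against the SD in the matching chamber of E11.5H (horizontal axis) for the 10 genes, with atrial comparisons in the left panel and ventricular ones in the right. The points of the 10 genes lie above the dashed line of equal SD, as does the median of all genes (cross).

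The 3 genes with the largest SD over the 6 HO libraries were Mest (1.29), Peg10 (1.06) and Grb10 (0.945). The genes most alike were found as the smallest root mean square difference of centred log2 CPM over these 6 libraries among 12171 genes. They were Tspan11 (0.177), Tspan18 (0.217) and the endothelin receptor Ednrb (0.228) for Mest. For Peg10 they were Igf2os (0.152), the LIM protein gene Crip1 (0.257) and the endocytic adaptor Dab2 (0.330). Counts of Igf2os may include fragments of Igf2, which it overlaps on the opposite strand. For Grb10 they were Ogfrl1 (0.0978), Zfp651 (0.133) and the ceramide synthase Cers4 (0.177), which like Grb10 were lowest in the first atrium-like library. Marker lists in the same libraries did not move as 1 block. H19 and the hepatocyte and gut epithelium lists were all high in atrium-like libraries 1 and 3. The third ventricle-like library was 2.62 and 1.3 above the mean of the 6 HO libraries on these lists, with H19 at -0.41 on the same scale. The first atrium-like library had the lowest Mest, Grb10 and Cdkn1c of all HO libraries. It also had the lowest cardiomyocyte list value, a mean log2 CPM of 5.37 against 6.59 to 8.79 in the other 5. This library was lowest as well on the neural (-1.80) and skeletal muscle (-1.69) lists and highest on the hepatocyte (9.81) and gut epithelium (8.52) lists. The third ventricle-like library had the highest cardiomyocyte value, with Mest at -0.79, Cdkn1c at -0.16 and Grb10 at 0.55 around their means of the 6 HO libraries. The part of these cells was not tested.

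**Figure D5:**
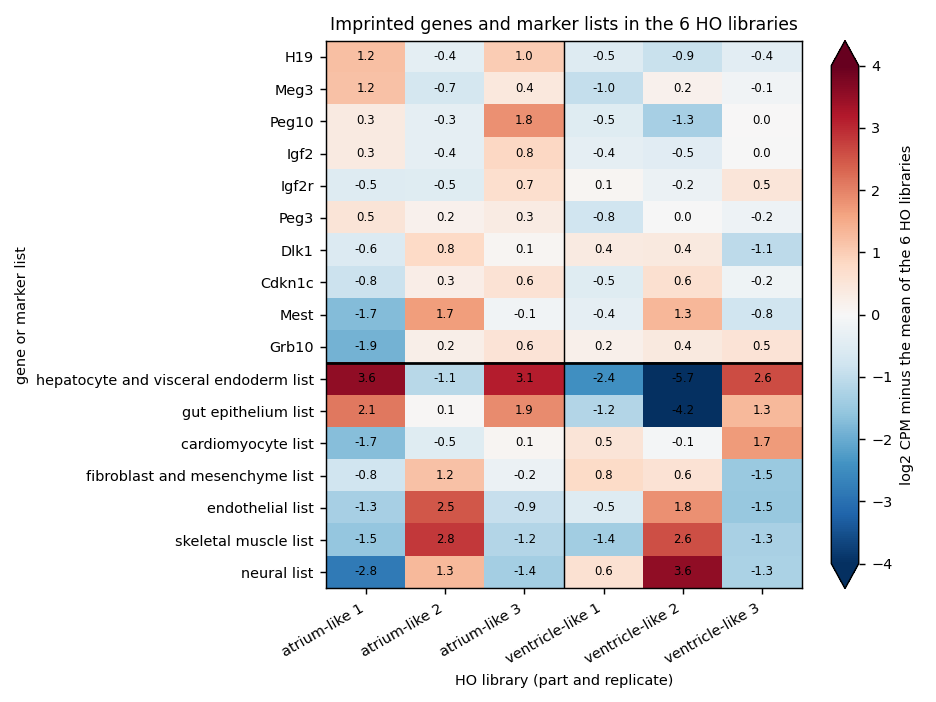
Log2 CPM of the 10 genes (above the line) and mean log2 CPM of 7 marker lists (below it) in the 6 HO libraries (horizontal axis), each minus its mean over the 6 libraries, with colours that saturate at 4 and the value printed in each cell. H19 is 1.19 and 1.03 above its mean in atrium-like libraries 1 and 3, and Mest ranges from -1.73 in the first to 1.69 in the second.

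Other imprinted genes were followed in lists by reported parental allele, and whether each is imprinted in the heart was not checked. Of 23 further paternally expressed genes tested between atrium-like parts and atria 4 were higher and 3 lower, where 16.0% of all genes were higher and 8.81% lower, with a median log2 fold change of 0.14 against 0.06 over all genes. Besides Ddc and Dio3, Nap1l5 was called higher (log2 fold change 1.93, SE 0.59, adjusted p = 0.0482 by edgeR), as was Zrsr1 (1.66, SE 0.43, adjusted p = 0.0288 by edgeR). Dio3 had 0 counts in atria against 16, 29 and 21 in atrium-like parts, so it passed the filter for low counts through the latter. Ndn, the growth-suppressing gene necdin, fell from 107 to 113 FPKM in atria to 18.96 to 47.8 FPKM in atrium-like parts (log2 fold change -1.79, SE 0.31, adjusted p = 0.00995 by edgeR). Nnat (-1.16) and Usp29 (-1.17) were lower too, with edgeR-adjusted p of 0.0445 and 0.0425. Of 22 tested between ventricle-like parts and ventricles 1, Sgce, was higher and none was lower, against 11.6% and 7.35% of all genes, with a median of 0.72 against 0.09.

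Of 20 further maternally expressed genes 3 were higher and 2 lower against atria in atrium-like parts, a share level with the 24.8% called over all genes, and the median log2 fold change was -0.28 against 0.06. Slc22a18, a transporter gene next to Phlda2, was higher with 2.65 to 12.99 FPKM against 0.338 to 0.714 FPKM (log2 fold change 4.33, SE 0.78, adjusted p = 0.0107 by edgeR). Zim1, a zinc finger gene near Peg3, was lower (-1.08, SE 0.31, adjusted p = 0.0396 by edgeR). Calcr, the calcitonin receptor gene, had 0 counts in all 6 HO libraries, which makes it at least 46.0-fold lower than atria, and at least 8.69-fold lower than ventricles, against a floor of 3 counts in each library. Calcr passed the filter for low counts through the E11.5H libraries. Placing Calcr and Dio3 at their fold bounds does not move the medians of their lists. Of 20 tested in ventricle-like parts 2 were higher and 3 lower, where 18.9% of all genes were called, with a median of 0.11 against 0.09. Dcn, the matrix proteoglycan decorin, rose from 27.7 to 30.3 FPKM to 474, 240 and 60.0 FPKM (log2 fold change 3.05, SE 0.71, adjusted p = 0.0242 by edgeR). Asb4 fell by 1.44 (SE 0.16, adjusted p = 0.00323 by edgeR) and Klf14 by 3.10 (SE 0.92, adjusted p = 0.0484 by edgeR) on the log2 scale. Between the chambers of E11.5H 3 of 20 maternal genes were higher in atria, against 2.92% of all genes, Calcr (2.39, adjusted p = 0.0184 by edgeR), Zim1 (1.52, adjusted p = 0.000209 by edgeR) and Dcn (1.03, adjusted p = 0.000953 by edgeR), and of 22 paternal genes only Ddc was called, lower, against 1.97%.

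In a list of genes for imprints and DNA methylation, which holds more than maintenance factors, the genes called were lower in HOs. Of 11 tested 4 fell and none rose in each of the comparisons with E11.5H. Of all genes 8.81% and 7.35% were lower and 16.0% and 11.6% higher there. Dnmt3l, a gene of the list that did not pass the filter for low counts there, was higher in ventricle-like parts. It had 122, 134 and 7 counts against 0 in all 3 ventricles, at least 28.6-fold against a floor of 3 counts in each library. In atrium-like parts Dnmt3l had 43, 79 and 5 counts against 0, 0 and 4 in atria. The median log2 fold change of the 11 was -0.93 in atrium-like and -0.70 in ventricle-like parts, against 0.06 and 0.09 over all genes. Dnmt1, the maintenance methyltransferase, had 21.8 to 25.2 FPKM in E11.5H and 3.02 to 12.5 FPKM in HOs, a log2 fold change of -1.70 (SE 0.44, adjusted p = 0.0307 by edgeR) in atrium-like and -1.55 (SE 0.12, adjusted p = 0.00136 by edgeR) in ventricle-like parts. Uhrf1, which brings DNMT1 to newly replicated DNA, had 33.0 to 51.7 FPKM and 4.56 to 14.6 FPKM, with log2 fold changes of -2.13 (adjusted p = 0.011 by edgeR) and -2.38 (adjusted p = 0.00136 by edgeR). Both genes are expressed mostly in dividing cells. Dnmt3b and Tet1 were also lower in both comparisons, with log2 fold changes of -1.64 to -1.16. Mean FPKM of Zfp57, also of this list, was 2.53 in atria and 0.908 in atrium-like parts. It was 2.19 in ventricles and 1.86 in ventricle-like parts. For Zfp445 the means were 7.59 and 6.29 in the atrial pair and 5.69 and 7.62 in the ventricular pair, in the same order. Among 7 regulators of Igf2 and binders of its RNA, 2 fell in atrium-like and 4 in ventricle-like parts, against 8.81% and 7.35% of all genes, and none rose. Hmga2, a chromatin protein of fetal tissues that acts upstream of Igf2, fell by 1.45 and 2.10 (edgeR-adjusted p of 0.00925 and 0.0113), and Igf2bp1 fell by 1.03 and 1.55 (edgeR-adjusted p of 0.0172 and 0.00307) on the log2 scale. Lin28b fell by 2.10 in ventricle-like parts (adjusted p = 0.0166 by edgeR). No gene of either list was called between the chambers of E11.5H or between the HO parts.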

How the data were processed

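RNA-seq libraries of dissected parts of E11.5H and HOs were analysed, 12 in all. Per the methods, the authors mapped reads to GRCm38/mm10 with STAR, and deposited expected counts (fragments per gene, not normalized) and FPKM values for each gene. The counting tool, annotation release and use of strand are not given in the sources used here. Counts, 23.8% of them not whole, were rounded. The quasi-likelihood test of edgeR 4.0.16 (R 4.3.3) was run with TMM factors, a minimum count of 10 in filterByExpr and adjustment by Benjamini-Hochberg over all genes tested, for pairs of groups and over 12 libraries for the interaction. DESeq2 1.42.0 served as an alternative. Except for the floor of 3 counts, CPM are on the TMM scale, and log2 CPM use a prior count of 2. Scripts were tested on simulated data. Figures were drawn with matplotlib 3.10.9.

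Groups and replicate numbers came from the sample titles. The methods call the HOs of these libraries biological triplicates, and for the dissected E11.5 hearts they do not say how the libraries relate, so there p-values measure the spread between these libraries, which may be technical. Replicates differed by more than counting error in each group. The 10 genes, the gene lists and the tests were chosen with earlier results of these data known. Besides the 10 genes and their fixed neighbours, the text names called genes with a mean of at least 1 FPKM in the higher group. They come from each list of imprinted genes, genes for imprints and DNA methylation, and Igf2 regulators, at most 3 higher and 3 lower per comparison. For the 3 genes most variable in HOs the 3 genes most alike are named, among those with a mean of at least 5 CPM. Dnmt3b in atrium-like parts, Tet1 in ventricle-like parts, Dnmt3l, Zfp57 and Zfp445 were named beyond this, after their values were seen. Promoter and microRNA sequences are from RefSeq. A count of 0 allows 0.0982 to 0.125 CPM (3 counts, counting error only). This floor and the fold bounds set against it use library totals without TMM factors. Alternatives were other size factors, DESeq2, no filter, no fold limit, the replicate number as a block, all libraries in 1 fit, leaving out each library, and, for the spread, the coefficient of variation of FPKM.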

Additional observations from a re-analysis of the deposited data

How the results depend on the processing

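The counts of called genes against E11.5H kept to 8 in atrium-like and 7 or 8 in ventricle-like parts under each alternative other than leaving out a library. Leaving out 1 library gave 5 to 8 and 7 to 8 calls, with 5 without any of the atria. Between the chambers of E11.5H the count went from 0 to 7 without the fold limit, and from 0 to 1 when 1 library was left out, by Peg10 without the first ventricles library (log2 fold change 1.10). Between the HO parts it was 0 throughout. The interaction called 1 gene, H19, with DESeq2, and 0 to 1 when 1 library was left out. By the coefficient of variation of FPKM 9 and 10 genes varied more in HOs. The larger SD in HOs held for 9 to 10 genes (atrium-like) and 8 to 10 genes (ventricle-like) when 1 library was left out. The causes were not tested. Of 112 recomputed values each of the genes called in atrium-like and ventricle-like parts 101 and 104 stayed called and none changed direction.

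Changes of direction were seen in values that were not called. Between the HO parts Cdkn1c had -0.034 with upper quartile factors and -0.086 on total counts, and Mest had -0.094 with the replicate block. Peg3 in ventricle-like parts against ventricles had 0.031 on total counts. The interaction of Grb10 was -0.017 with upper quartile factors, -0.14 on total counts and -0.23 with the replicate block. Leaving out 1 library, the values between the HO parts ran from -0.62 to 0.091 for Igf2r, from -0.22 to 0.44 for Dlk1, from -0.28 to 0.45 for Cdkn1c, from -1.10 to 1.13 for Mest and from -0.87 to 0.0002 for Grb10, and Peg3 in ventricle-like parts ran from -0.28 to 0.077. The interaction ran from -0.22 to 0.48 for Igf2r, from -0.0047 to 0.90 for Meg3, from -0.35 to 0.02 for Peg3, from -0.35 to 1.86 for Mest, from -0.37 to 0.51 for Grb10 and from -0.23 to 0.97 for Peg10.

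The replicate number as a block left the count of called genes at 8 in atrium-like and 8 in ventricle-like parts. Over all genes it gave 621 calls in place of 712 between the chambers of E11.5H, 2806 in place of 3821 and 2003 in place of 2859 against E11.5H, and 5 in place of 25 in the interaction. The sources do not say whether same-numbered parts came from the same HOs or hearts. Same-numbered parts correlated at 0.007 to 0.043 in E11.5H and at 0.017, 0.589 and 0.360 in HOs, where the first atrium-like library was closest to the third ventricle-like one, so whether the numbers pair the libraries was not settled and they were not used as pairs. On total counts the log2 fold change of the median gene moved from 0.06 to -0.07 in atrium-like and from 0.09 to 0.23 in ventricle-like parts. Leaving out 1 library, calls over all genes ran from 1662 to 5495 in atrium-like and from 1116 to 3725 in ventricle-like parts, and in the interaction from 2 to 216, and without the fold limit 4462 were called in ventricle-like parts. DESeq2 called 455 genes in the interaction against 25, and all 12 libraries in 1 fit called 30 between the chambers of E11.5H against 712. With 3 libraries a group, and a spread between HO libraries above that of E11.5H, small differences between the HO parts may have been missed. The size of difference that could be detected was not tested.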
